A study of Mus musculus with 9 samples.

Results

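This account describes 13194 places outside the ribosomal RNA gene (rDNA) repeat where both UBTF ChIP-seq libraries of wild type mouse pre-B cells had a peak summit. They were chosen from the best 20000 peaks of each of the 2 wild type lists, ranked by the score that the authors' peak caller gave, as the replicate 1 peaks with a replicate 2 summit within 200 bp. They make up 66.0% of the best 20000 peaks of replicate 1, and the 6 UBTF lists of the series held 1796552 peaks outside rDNA in all. Both wild type lists chose these summits, so their number is a description. Their annotation, sequence and presence in other libraries were not used by the choice.

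The cells were primary pre-B cells sorted from bone marrow of C57BL/6 mice as B220 high, IgM low and IgD low per the labels. For malignant cells the methods give another gate, B220+, IgM- and IgD-. Wild type animals carried no transgene and were 4 to 6 weeks old. Premalignant cells came from Eµ-Myc mice of the same age and malignant cells from Eµ-Myc mice of 10 to 20 weeks with spontaneous lymphoma. Eµ-Myc is a transgene, kept heterozygous, in which the immunoglobulin heavy chain enhancer drives MYC in B lineage cells. Each of these 3 stages had 2 UBTF libraries, made as biological replicates with a polyclonal rabbit antiserum against UBTF1/2. The 9 samples also included 3 inputs, which were not analysed here, so no value below has an input background beside it. A sort on surface markers cannot separate pro-B from pre-B cells fully, and peaks at promoters do not measure expression.

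UBTF is a protein with several HMG boxes, a fold that bends DNA and binds its minor groove with little preference for letters. It coats active rDNA repeats in the nucleolus, keeps them open and helps to recruit the RNA polymerase I initiation factors. Away from rDNA it has been found at gene starts with open chromatin, among them those of histone genes.

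Peak lists carry no read counts, so the depth of the libraries is unknown. The wild type lists held 116093 and 184574 peaks outside rDNA, and the other 4 held between 78074 and 575595. Among the best 20000 peaks, the median width of a region was 2093 and 2099 bp in wild type and 2073 bp in premalignant replicate 1, whereas in the other 3 lists it was between 3151 and 6904 bp. The best 20000 lists also differed in sequence between the wild type libraries. Summits of at least 60% GC and without a repeat made up 12.9% of the list of replicate 1 and 2.94% of that of replicate 2. Replicate 1 had the larger share at the other stages too, with 18.4% against 2.39% in premalignant and 30.2% against 5.11% in malignant cells. The study's methods state that wild type and premalignant animals were female. Peaks on the Y chromosome had a density of 65.1 and 82.1 per Mb in the wild type lists, against 45.8 and 72.2 per Mb on the autosomes. Of the 13194 shared summits, 26 were on Y. For 4 of these, the 24-base words of the 100 bp on each side had a median of 1 copy in the genome. Where those reads came from was not tested.

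The replicates placed shared summits nearly at the same base. The median gap between the 2 summits was 6 bp, and 85.8% of the gaps were at most 20 bp. The limit of 200 bp passed through a thin part of the distribution, with 65 peaks at 151 to 200 bp and 51 in the next 50 bp. At the other limit, the scores at ranks 20000 and 20001 were both 10.7 in replicate 1 and both 15.8 in replicate 2. Of the best 1000 peaks of replicate 1, 998 were shared, whereas 303 of those at ranks 19001 to 20000 were. The ranks of shared summits in both lists had a Spearman correlation of 0.754 across 13194 summits, given as a description of 2 libraries.

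Most shared summits lay on simple repeats. Each summit was placed in 1 of 7 sequence kinds by the sequence of its window, the 100 bp on each side of it, where a tandem repeat is a stretch of at least 40 bp that perfectly repeats a unit of 1 to 6 bases. Repeats of GA (CT on the other strand) marked 8313 summits or 63.0%, repeats of CA marked 896 without one of GA, the telomere hexamer marked 142 and repeats of other units marked 688. Counting the 302 summits with both, 1198 held a CA repeat. A further 2534 summits held a run of at least 12 bp of GA but no repeat of 40 bp. The remaining 621 summits had neither, and 277 of them were GC-rich, with at least 60% GC. Best ranked summits of 4 of these kinds are shown for their sequence, from the plus strand of the mm9 assembly. Capitals mark tandem runs of at least 24 bp in the first 2.
GA repeat, chr2:107966283-107966483, intergenic: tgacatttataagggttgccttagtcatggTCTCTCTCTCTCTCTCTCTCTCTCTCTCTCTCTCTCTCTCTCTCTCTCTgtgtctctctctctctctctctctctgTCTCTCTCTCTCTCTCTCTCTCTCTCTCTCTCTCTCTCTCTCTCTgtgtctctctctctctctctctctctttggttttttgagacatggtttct
Other unit, chr11:56989550-56989750, promoter of Gria1: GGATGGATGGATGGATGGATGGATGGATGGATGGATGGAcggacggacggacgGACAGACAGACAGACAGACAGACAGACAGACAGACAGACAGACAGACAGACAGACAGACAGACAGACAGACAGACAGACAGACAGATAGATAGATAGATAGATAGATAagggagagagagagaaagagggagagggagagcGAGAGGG

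The GA repeat had ranks 9 and 8 in the wild type lists. The repeat upstream of Gria1, a glutamate receptor subunit, is a chain of 4-base units and had ranks 30 and 48. In the next 3 sequences, from summits with no such repeat, capitals mark CpG, the dinucleotide that is methylated in most of the genome and kept in CpG islands.
GC-rich, chr14:79880455-79880655, promoter of Elf1 and Wbp4: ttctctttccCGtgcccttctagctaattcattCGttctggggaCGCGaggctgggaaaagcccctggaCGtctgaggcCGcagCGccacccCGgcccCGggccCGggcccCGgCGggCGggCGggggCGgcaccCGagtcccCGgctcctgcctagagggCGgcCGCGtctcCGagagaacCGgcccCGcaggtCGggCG
GC-rich, chr16:11144088-11144288, start of mmu-mir-689-2: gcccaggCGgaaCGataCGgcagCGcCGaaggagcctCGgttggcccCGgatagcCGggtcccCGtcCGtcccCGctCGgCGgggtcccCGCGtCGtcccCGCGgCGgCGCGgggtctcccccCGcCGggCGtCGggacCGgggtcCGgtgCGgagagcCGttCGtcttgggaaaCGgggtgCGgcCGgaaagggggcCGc
Neither, chr6:3151069-3151269, intergenic: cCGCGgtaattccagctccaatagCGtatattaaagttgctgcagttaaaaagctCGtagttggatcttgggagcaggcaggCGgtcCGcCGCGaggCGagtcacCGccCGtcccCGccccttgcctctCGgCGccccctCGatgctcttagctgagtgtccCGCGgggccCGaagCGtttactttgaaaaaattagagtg

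The first of these is single-copy and rich in CpG, with its summit 520 bp downstream of a start of Wbp4 and 446 bp upstream of one of Elf1 on the other strand, and had ranks 632 and 1184. The others are from the strongest summits of the set. The stretch on chromosome 16 had ranks 2 and 1 and occurs in 3 copies. The stretch on chromosome 6 had ranks 4 and 52 and occurs in 2 copies. No rDNA sequence was compared with these stretches.

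The 10 best summits by mean rank included 3 GC-rich places, 2 telomere repeats and 5 places with GA repeats or runs. The summits at mmu-mir-689-2 on chromosome 16 (11144188), at mmu-mir-2134-4 on chromosome 9 (56071583) and in an intron of Filip1l on chromosome 16 (57391656) had ranks 2 and 1, 3 and 3, and 1 and 6 in the wild type lists. The first had rank 1 in each of the other 4 lists. The summit at mmu-mir-2134-4 had ranks 3, 2, 4 and 2 there, and the one in Filip1l ranks 2, 42, 2 and 43. Ranks in lists of different length are given side by side and were not tested. The telomere repeat on chromosome 5 (152537197) runs up to the end of the chromosome as assembled, and its summit lies 62 bp from that end. Its ranks were 7 and 4 in wild type and 7, 5, 6 and 3 elsewhere. The telomere repeat on chromosome 14 (86598884) had ranks 5 and 2 in wild type and 5 and 3 in premalignant cells. It had no summit within 200 bp in either malignant list. The 2 summits at 79487544 and 79487204 on chromosome 17 share 1 region in an intron of Qpct, which encodes an enzyme that modifies peptide N termini. The summit at 79487544 had ranks 10, 106, 8 and 75 outside wild type. The one at 79487204 had rank 12 in premalignant replicate 1 and no counterpart within 200 bp in the rest.

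**Figure D1:**
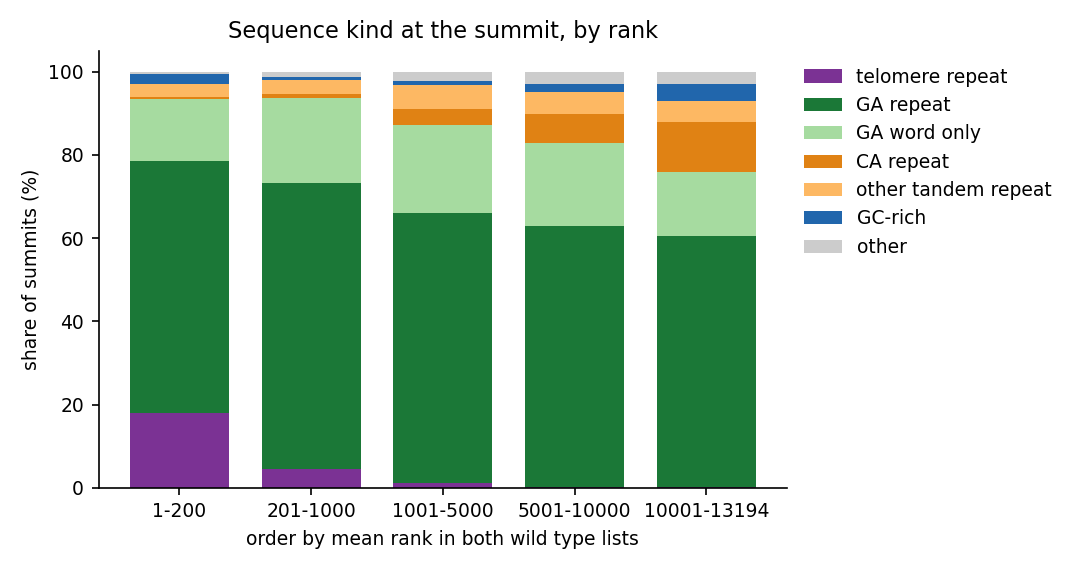
Share of shared wild type summits (vertical axis, %) in each sequence kind, for 5 ranges of the order by mean rank in both wild type lists (horizontal axis). Telomere repeats made up 18% of the best 200 and 0.125% of the last 3194, whereas CA repeats went from 0.5% to 12.1% and GA repeats stayed between 60.3% and 68.6%.

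Repeats were rare at positions where the same summits were moved along their chromosomes by 20 fixed steps. A tandem repeat of at least 40 bp stood at 76.1% of the shared summits (95% interval 75.4 to 76.8%), at 2.23% of the moved positions and in 2.23% of all tiles of the same length in the genome. All intervals on shares are exact (Clopper-Pearson) and cover only the error of counting. A 12-bp run of GA was found at 86.1% of summits against 1.37% of tiles, and a 12-bp run of CA at 28.2% against 3.08%. In the best 20000 of each wild type library alone, GA repeats marked 54.9% and 58.6% of summits (mean 56.8% ± 2.65, SD, n = 2). Among the 6806 best peaks of replicate 1 that were not shared, the share was 39.1%, and GC-rich summits there made up 33.9%. The 6-base words with the largest excess over the genome were GAGAGA at 69.0 times its genomic rate, AGAGAG at 66.0 times, GACAGA at 15.6 times, CGCACG at 14.6 times and AGAGAC at 13.1 times.

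GC content was only moderately raised over the whole set. The median of the window was 47.8% (quartiles 44.3 and 50.2%), against 41.8% in genome tiles, with medians of 48.3% and 47.8% in the wild type lists alone. The GC-rich kind stood apart with a median of 71.6% and a CpG rate of 0.882 of that expected from its C and G content, against 0 for the set as a whole and 0.145 in tiles.

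Much of this sequence is not unique. The median number of genomic copies of the 24-base words in the window was 26.5 for shared summits, and 57.6% of summits had over 10 copies against 12.5% of moved positions. Windows with a median of 1 copy numbered 3420 or 25.9%, against 81.1% of moved positions. They are called single-copy below, although some words of such a window can occur many times. Per the methods, mapping used default options, under which bowtie2 places a read with several equally good matches at 1 of them. The part of such reads in the repeat summits was not tested. Among the 3420 summits in single-copy sequence, the tandem repeat share was 76.8%, beside 76.1% in the whole set, and the share at promoters was 8.10%.

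The repeats were also counted from the side of the genome. Of 355281 perfect tandem repeats of at least 40 bp in mm9, 12778 or 3.6% had a shared summit within 100 bp. The share was 14.1% for the 66802 GA repeats, 1.37% for the 105325 CA repeats and 73.5% for the 219 repeats of the telomere hexamer. All other units together had 0.957%. Purine repeats with other units were at this level as well, with 0.806% of GAAA repeats, 0.535% of GGAA repeats and 0.568% of GAA repeats. GATA repeats had 0.499% and AT repeats 0.109%. Among rarer units, 21.6% of 1124 ACAG repeats and 32.0% of 181 CGCA repeats had a shared summit.

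Longer GA and CA repeats were covered more often. For GA the share was 12.4% at 40 to 59 bp, 19.6% at 60 to 79 bp, 45.1% at 80 to 99 bp and 82.8% (95% interval 73.9 to 89.7%) of the 99 repeats of 100 bp or more. For CA it was 0.997%, 10.9%, 93.4% and 60 of 60 in the same bins. GAAA repeats had shares between 0.710% and 0.905% in all 4 bins, GGAA between 0 and 1.29%, and GATA between 0 and 1.56%. The rise was present in each wild type list alone. In replicate 1, 15.3% of GA repeats of 40 to 59 bp and 84.8% of those of 100 bp or more had a summit, and in replicate 2 16.4% and 96.0%. Premalignant replicate 1, which the choice did not use, gave 13.8% and 73.7%. In premalignant replicate 2 the shares were 1.87% and 5.05%.

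**Figure D2:**
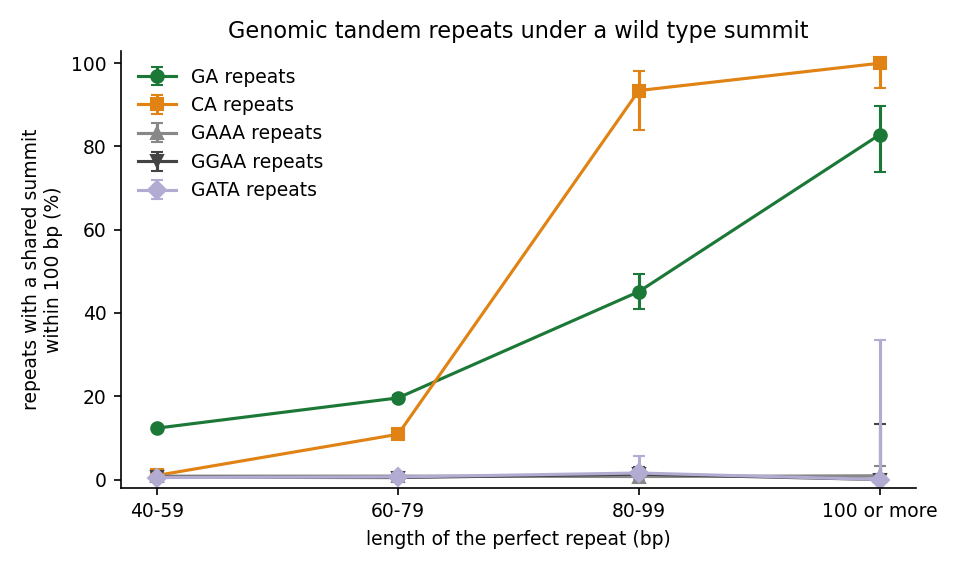
Share of perfect tandem repeats in mm9 with a shared wild type summit within 100 bp (vertical axis, %, with 95% exact intervals) by repeat length in bp (horizontal axis), for 5 repeat units. GA and CA repeats rose to 82.8% and 100% at 100 bp or more, and the 3 other units had at most 1.56% in every bin, with wide intervals where repeats were few.

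The relation also held for interrupted repeats. When all GA runs of at least 24 bp within 200 bp of a repeat's centre were added up, the share with a shared summit was 7.94% for a total of 40 to 59 bp, 17.5% for 60 to 79 bp, 57.6% for 80 to 119 bp, 82.6% for 120 to 159 bp and 66 of 68 above that. GA repeats with a shared summit had a median total of 65 bp and those without 51 bp, and a CA run stood nearby in 16.2% of the first and in 13772 of the 57381 without. Summits sat on the repeat itself in 77.0% of cases in replicate 1 and 75.5% in replicate 2, at a median of 16 and 17 bp from its centre. Among the repeats that were covered, the median rank was best in the shortest bin. The choice bounded these ranks and let in a smaller share of short repeats, so they cannot show whether strength depends on length. The median replicate 1 rank was 6286, 6814, 10584 and 8560 for GA repeats of 40 to 59, 60 to 79, 80 to 99 and 100 bp or more. In replicate 2 it was 6409, 7363, 11286 and 8936. In introns, the GA strand was the sense strand of the gene for 47.2% of 2796 repeats with a shared summit (95% interval 45.4 to 49.1%) and for 49.0% of 18244 without.

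Telomere hexamer repeats were few but strong. Their median ranks were 1038 and 938 in the wild type lists, against 6904 and 6924 for all shared summits. By class, 89 of the 142 were intergenic and 47 intronic, and 62.7% lay in windows whose words have a median of 1 copy. The hexamer caps chromosome ends, and short blocks of it lie inside chromosomes.

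By gene annotation the shared summits were close to the genome, with few in exons. In GENCODE M1, 8294 summits or 62.9% were intergenic (95% interval 62.0 to 63.7%), 4199 or 31.8% intronic, 648 or 4.91% at promoters (within 1 kb of a transcript start, 4.55 to 5.29%) and 53 or 0.402% in exons. The genome's sequenced bases divide into 57.7%, 35.7%, 4.15% and 2.42%. The promoter share of the shared summits was thus 1.18 times and the exon share 0.166 times that of the genome. In the wild type lists alone the promoter share was 6.50% and 4.99% (mean 5.74% ± 1.06, SD, n = 2). The libraries thus differed by more than replicate 2 differed from the genome. The exon share was 0.43% and 0.37%, far under the genome in both. The choice of the best 20000 bears on the promoter value. Among all 79870 summits that the full wild type lists shared, 10.6% were at promoters.

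**Figure D3:**
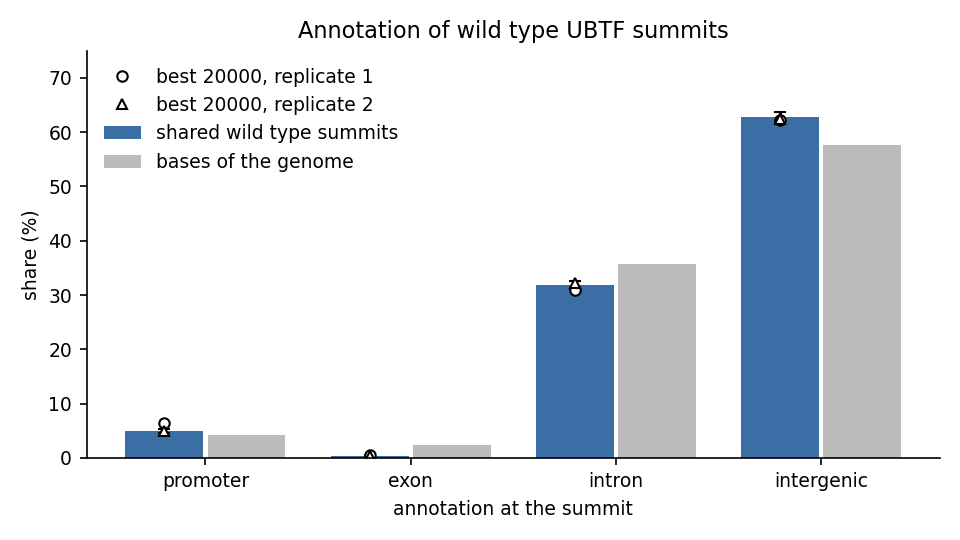
Share (vertical axis, %) of shared wild type summits (blue bars with 95% exact intervals) and of genome bases (grey bars) in 4 annotation classes (horizontal axis). Open symbols give the best 20000 peaks of each wild type library, which sit near the blue bars except at promoters, where they are 6.50% and 4.99%.

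The classes differed in sequence. GA repeats made up 65.9% of intergenic summits, 60.04% of intronic ones and 46.3% of those at promoters. GC-rich summits were 30.7% of the promoter class and at most 1.89% of any other class, and 199 of the 277 GC-rich summits were at promoters. The best intronic summits, beside those already named, were on a GA repeat of Ube2ql1, a ubiquitin-conjugating enzyme, with ranks 21 and 20, and on a telomere repeat of Dopey2 with ranks 27 and 21. The best exonic summits were weaker. A GA repeat in an exon of Slc25a42, a mitochondrial carrier, had ranks 198 and 325, and others lay in Hes7, Ephb2 and Mylk4. The fifth was GC-rich and in an exon of Fosl1, an AP-1 subunit, with ranks 598 and 4382.

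Protein-coding genes carried 2701 gene bodies with a shared summit, 12.1% of all. The genes with most were long. Pcdh9, a protocadherin, had 15 over 873 kb, and Dcc, the netrin receptor, Ntm, a neural adhesion molecule, and Alk, a receptor kinase, had 14, 14 and 13. Ctnna3, Lrp1b and Fgfr2, named after their values were seen, also had 13, over 1574, 2058 and 3009 kb as annotated. The density was 12.8 to 17.7 per Mb in the first 4, and 8.26, 6.32 and 4.32 per Mb in the last 3. The largest count, 36, was in Gm20388, a gene model of 4435 kb, with a density of 8.12 per Mb. Whole autosomes had between 4.86 (chromosome 15) and 5.75 (chromosome 6) shared summits per Mb, and the X chromosome had 3.62. The Y chromosome had 9.62 per Mb, from 26 summits. The median distance to the nearest protein-coding start was 64.3 kb, against 49.3 kb for moved positions, and 77.1 kb for GA repeat summits.

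At gene starts, 487 of 22225 protein-coding genes had a shared summit within 1 kb, which is 2.19% of all. For 203 of them the best summit was a GA repeat and for 182 it was GC-rich, 0.819% of all genes. The order by mean rank was led by repeats. Faim3, an Fc receptor for IgM on B cells, had a GA repeat 542 bp downstream of its start with ranks 23 and 34. The same summit had ranks 40, 220, 77 and 189 in premalignant replicates 1 and 2 and malignant replicates 1 and 2. Gm10281, Pak3, Cxcl5, Gpr141, Tdpoz3, Trim29, Gys2 and B3gat1 also carried GA repeats, between 923 bp upstream and 917 bp downstream. They include a kinase (Pak3), a chemokine (Cxcl5) and the liver glycogen synthase (Gys2). Gria1 and Tas2r134, a bitter taste receptor, had repeats of other units, and Jsrp1 interrupted GA runs.

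The GC-rich genes among the best 15 were Ino80d, Tlk2 and Psmd3. Ino80d, a subunit of the INO80 chromatin remodeller, had its summit 17 bp upstream of the start, with ranks 110 and 112 in wild type. In the other libraries its ranks were 103, 53, 109 and 49. Tlk2, a kinase of histone chaperones, had ranks 356 and 347, and 234, 40, 117 and 58 in the others. Both had a summit in all 6 lists. Psmd3, a subunit of the proteasome cap, had ranks 249 and 666 in wild type, 267 in premalignant replicate 1 and 61 in malignant replicate 1. It had rank 376319 in premalignant replicate 2 and no summit within 200 bp in malignant replicate 2. The next GC-rich genes, named here after their values were seen, were Elf1 with Wbp4, an ETS factor and a splicing factor read from 1 shared start region, and Hmgxb4.

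GC-rich summits followed the gene start, and GA repeat summits did not. Of the GC-rich summits 172 lay within 1 kb of a protein-coding start, at a median of 77 bp downstream in replicate 1 (quartiles -45.75 and 245 bp) and 69 bp downstream in replicate 2. The median was 15.5 bp downstream (quartiles -52.75 and 218 bp) for the 142 in single-copy sequence. It was 203.5 bp downstream for the 30 in sequence with 2 to 20 copies. The 207 GA repeat summits in this range had quartiles of -620 and 292 bp, with 16.9% in the first 500 bp downstream against 53.5% of the GC-rich ones. Both kinds sit on a fixed part of the genome, and the positions of genomic GA repeats around starts were not set beside them.

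**Figure D4:**
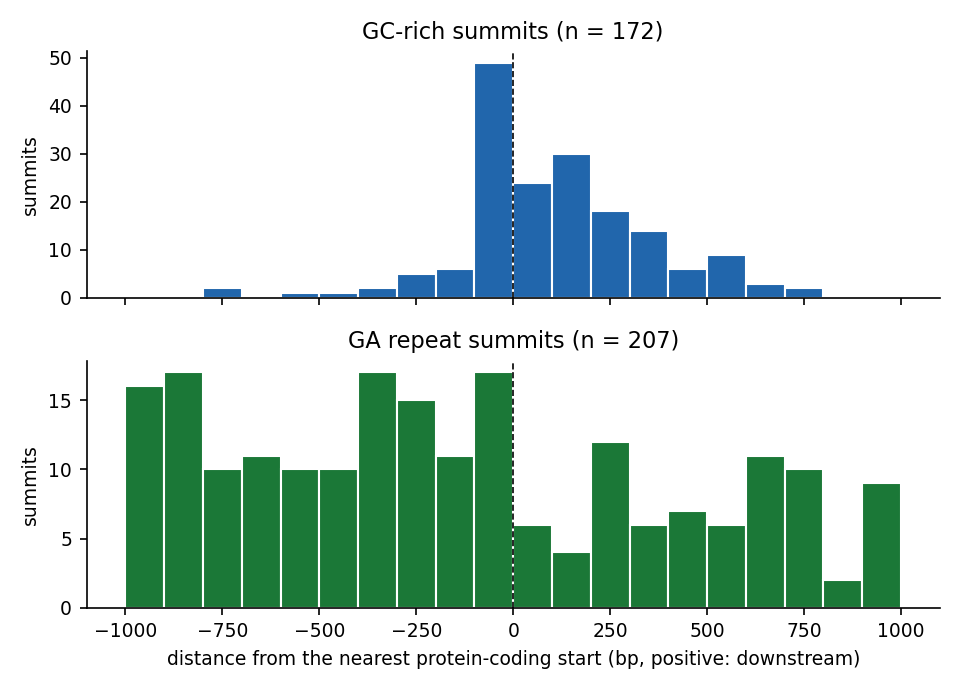
Number of shared wild type summits (vertical axis) by distance in bp from the nearest protein-coding start (horizontal axis, positive downstream, bins of 100 bp), for GC-rich summits (top, 172) and GA repeat summits (bottom, 207). GC-rich summits gather from just upstream of the start to somewhat downstream, with a median of 77 bp (15.5 bp in single-copy sequence). GA repeat summits spread over the whole range.

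Few GC-rich starts were covered. Of the protein-coding genes, 12571 had a start window of at least 60% GC, and 147 of these or 1.17% had a GC-rich shared summit. By copy number, 159 of the 277 GC-rich summits were in single-copy sequence, and 145 of those were at promoters. The 63 in sequence with over 20 copies were different, with 47 of them intergenic or intronic and a median gap of 77 bp between the replicates against 24 bp for the single-copy ones. Letters known from promoters were searched on both strands of the window. The GC box (GGGCGG), which Sp1 binds, was in 63.5% of GC-rich summits and in 65.5% of all start windows of at least 60% GC. By copy number it was in 83.0% of the single-copy ones, 32.7% of those with 2 to 20 copies and 41.3% of those with more. The E-box that MYC prefers (CACGTG) was in 0 of 277, against 6.77% of those start windows. A count of 0 allows a share of up to about 1.08%, taken as 3 of 277 and not from an exact interval. The CCAAT box was in 5.78% against 20.2%, and the letters AAGATGGCG, which YY1 binds, in 10.5% against 3.23%. Of the 29 summits with the last, 26 were in sequence with over 20 copies and 2 in single-copy sequence. A match of letters is a description of these windows only.

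Replication-dependent histone genes were the gene list with most starts covered. These genes are read in S phase and have no introns. Of 67 clustered histone genes, 24 or 35.8% had a shared summit at the start, against 2.19% of all genes. All 24 were of the Hist1 cluster on chromosome 13, and all the summits were GC-rich. The 24 genes shared 17 summits, some of them between an H2A and an H2B gene read in opposite directions. H3 had 8 of 11 genes, H2A 8 of 19, H2B 7 of 18, H1 1 of 6 and H4 0 of 13. Their summits lay at a median of 153 bp downstream of the start. Hist1h2ao and Hist1h2bq, on 1 summit, had ranks 3648 and 6033 in wild type, 2238 in premalignant replicate 1 and 732 in malignant replicate 1. The same summit had no counterpart within 200 bp in premalignant replicate 2 and rank 298794 in malignant replicate 2. Hist1h2ap with Hist1h2br had ranks 4810 and 6241 in wild type, and 2351, 258639, 727 and 310825 in the others. All 24 genes had their summit among the best 20000 of premalignant replicate 1 and malignant replicate 1, and 0 had it among those of premalignant replicate 2 and malignant replicate 2. In the full lists of these last libraries the summit was present for 5 and 8 of the 24. None of these 17 windows was in single-copy sequence. Their words had a median of 2 to 18 copies, so the value of each single histone gene is uncertain.

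The B cell list had 5 of 44 genes, 11.4% against the 2.19% of all genes. They were Bcl6, Cd22, Ebf1 and Ikzf1, and the fifth, named after its values were seen, was Cd24a. Ebf1 and Ikzf1 are transcription factors that set up the B lineage. Their GC-rich summits at 126 bp downstream and 81 bp upstream had ranks 3330 and 14873, and 8014 and 18476, in wild type. Ebf1 had ranks 2838, 22503, 2759 and 46050 in the others and Ikzf1 22193, 12165, 1100 and 12191. The repressor gene Bcl6, of the germinal centre, had ranks 2369 and 3569 in wild type and 18914, 33121, 100429 and 45345 elsewhere. Cd22, an inhibitory receptor of B cells, had a GA repeat 93 bp downstream with ranks 4037 and 3055. Elsewhere its ranks were 2435, 195304, 10487 and 237802. The choice bounded only the wild type ranks, so these values cannot show a difference between stages. The lists of T cell and myeloid genes had 0 of 20 each and the erythroid list 1 of 16, the ankyrin gene Ank1.

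In lists of genes of the nucleolus, of growth and of other functions, few genes or none were covered, beside 2.19% of all genes. No list was tested against that share. The RNA polymerase I machinery had 0 of 23, the MYC network 0 of 19, p53 and apoptosis 0 of 25, DNA replication and the cell cycle 0 of 40, cytosolic ribosomal proteins 0 of 85, mitochondrial ribosomal proteins 0 of 77, splicing factors 0 of 49 and keratins 0 of 51. Ribosome assembly had 2 of 49 or 4.08%. These were Gnl2, a nucleolar GTPase, with interrupted GA runs and ranks 718 and 754, and Dkc1, the pseudouridine synthase dyskerin, with a GA repeat and ranks 2072 and 6765. Translation factors had 2 of 66 or 3.03%, Eif2s3y and Eif4ebp2, and the proteasome 2 of 45 or 4.44%, Psmd3 and Psmc3. Eif2s3y has a GA repeat on the Y chromosome, and the words of its window had a median of 45.5 copies. Those of Eif4ebp2, on a CA repeat, had a median of 1.83e+06 copies. Olfactory receptors had 6 of 1113 or 0.539% and vomeronasal receptors 2 of 330 or 0.606%, both under the share of all genes and none of them GC-rich. The olfactory genes include Olfr1200, Olfr1375-ps1, Olfr222 and Olfr125, with ranks between 2915 and 8245. The full lists gave a larger set, with 5974 genes covered.

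At the starts of other transcripts, the promoter class held 23 summits nearest to 5S-type or other rRNA gene models. Of these, 17 lay in the 5S rRNA cluster of chromosome 8 between 126065979 and 126144192, with best ranks of 6739 and 8821 in the wild type lists. The 5S RNA is made by RNA polymerase III and joins the rRNAs made from rDNA in the large ribosomal subunit. Over all rRNA gene models, 6.93% had a shared summit within 1 kb, and 0.174% of the shared summits were that near to one, against 0.0298% of moved positions. A further 21 summits were nearest to miRNA models, 15 to snRNA and 15 to snoRNA models. Of these models 1.40%, 1.05% and 1.16% had a shared summit within 1 kb. The shares of shared summits that near to one were 0.174%, 0.114% and 0.129%, beside 0.115%, 0.102% and 0.108% of moved positions. Among them, the leading ones were mmu-mir-689-2 and mmu-mir-2134-4.

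The shared summits were then looked up in the 4 libraries from Eµ-Myc mice, which the choice did not use. Among the best 20000 of premalignant replicates 1 and 2, 74.0% and 14.6% of the shared summits had a summit within 200 bp, and among those of malignant replicates 1 and 2 40.02% and 25.2%. For all best 20000 peaks of wild type replicate 1 these shares were 59.9%, 10.3%, 35.7% and 17.6%. For the 6806 that were not shared they were 32.4%, 2.12%, 27.4% and 2.76%. The mean share was 44.3% ± 42.0 over the premalignant and 32.6% ± 10.5 over the malignant libraries (SD, n = 2 each), so the replicates of a stage differed by more than the stages did. In the full lists the shares were 92.7%, 80.1%, 89.1% and 88.6%, and 45 of the 13194 had no counterpart in any of the 4. For moved positions the shares in the full lists were 1.16%, 8.22%, 3.97% and 8.13%, and the regions of these lists covered 4.72% to 19.7% of the genome.

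The order of the sequence kinds was partly alike in these libraries. Telomere repeats were found for 98.6%, 98.6%, 96.5% and 98.6% in the 4 lists, and 135 of the 142 were in all 4. GA repeats had 74.2%, 11.4%, 38.4% and 21.7%, and CA repeats 65.2%, 4.13%, 22.5% and 11.6%. GC-rich summits had 68.6%, 32.9%, 76.5% and 36.1%. In premalignant replicate 1 GC-rich summits were thus found less often than GA repeats, and in the other 3 lists more often. Single-copy GC-rich summits were found for 73.0%, 47.8%, 81.1% and 50.3%. This order depended on the rule and was not tested. By overlap of regions, premalignant replicate 1 had 74.7% of GC-rich summits and 75.2% of GA repeats. In the full lists GC-rich summits had 93.1%, 67.1%, 93.9% and 65.7%, and GA repeats 92.4%, 79.3%, 88.3% and 88.7%. Among the best 20000 of each library, GA repeats were 54.9% and 58.6% of the wild type summits, 48.04% and 4.98% of the premalignant ones, and 17.6% and 10.1% of the malignant ones. The 3 lists with few GA repeats are those with the wider regions, and malignant cells have no list with narrow regions, so stage and peak width cannot be told apart there.

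**Figure D5:**
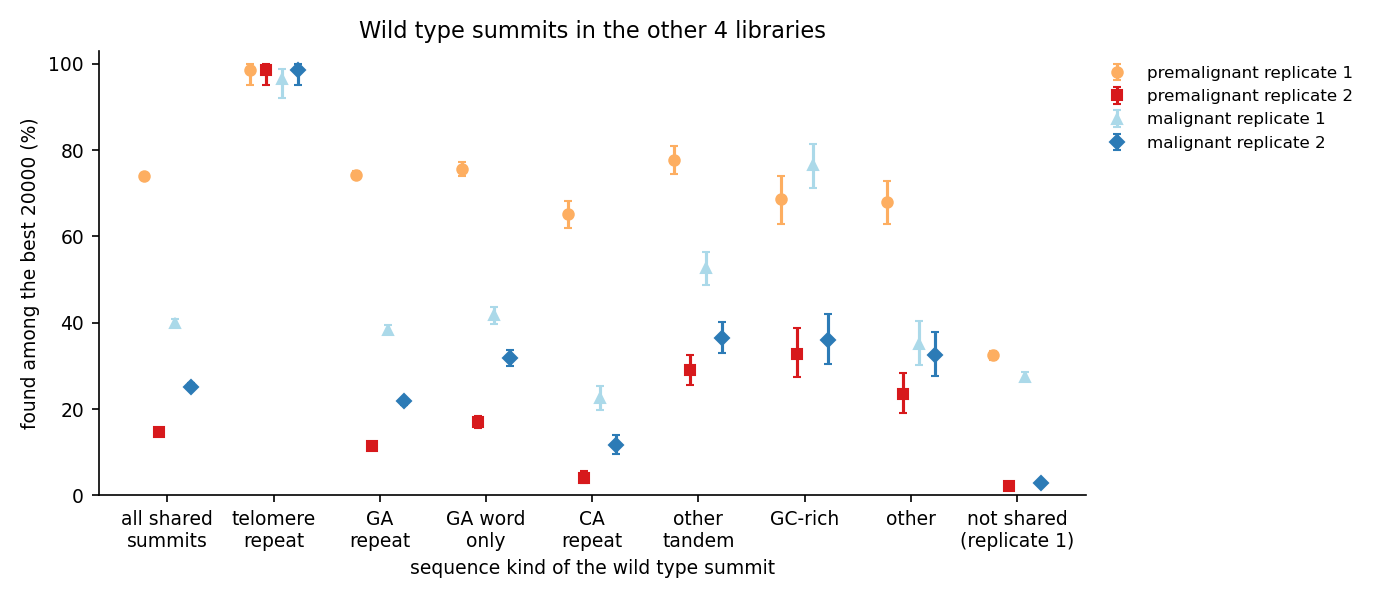
Share of shared wild type summits of each sequence kind with a summit within 200 bp among the best 20000 peaks (vertical axis, %, with 95% exact intervals) of each of the 4 Eµ-Myc libraries, with replicate 1 peaks that were not shared at the right. Telomere repeats were found for at least 96.5% in every library, whereas all shared summits together ranged from 14.6% to 74.0%.

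Whether wild type libraries differed in their promoter share was tested over libraries, with 1 value each. The best 20000 peaks of the premalignant libraries had 7.77% and 2.81% at promoters and those of the malignant libraries 7.23% and 5.48%, beside 6.50% and 4.99% in wild type. The wild type mean was 5.74% ± 1.06 (SD, n = 2) and that of the other 4 libraries 5.82% ± 2.24 (SD, n = 4), a difference of -0.079 percentage points (two-sided exact permutation p = 1, with a smallest possible p of 0.0667). Against premalignant cells the difference was 0.455 points (exact p = 1) and against malignant cells -0.613 points (exact p = 0.667), where the smallest possible p is 0.3333, and adjusted by Benjamini-Hochberg over the 3 tests all p were 1. The values of the groups overlapped in each comparison. A difference in promoter share was not detectable with these numbers of libraries. The sign and size of the wild type difference depended on the setting. It was 4.74 points with all peaks (exact permutation p = 0.133) and -2.03 points within the libraries with narrow regions.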

How the data were processed

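UBTF ChIP-seq was made from sorted pre-B cells of 3 stages, 2 libraries each. Per the labels and methods, bowtie2 placed the read pairs on mm9 plus 1 copy of the rDNA repeat, Picard 1.110 took out duplicates and SPP gave 1 peak list per library. The submitters' processing notes also name CASAVA 1.8.2. In the deposited lists the column used for ranking holds a score of the peak caller with no stated scale, so scores were not compared between lists, and ranks in several lists are given side by side with no test. The deposited q-value column holds a false discovery rate, of at most 0.000175 and 6.43e-06 among the best 20000 wild type peaks. Input samples have no list and were not analysed here. Peaks on rDNA were dropped.

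Classes came from GENCODE M1 and sequence from NCBIM37, the build of the files, with Python 3.11.15, numpy 2.4.6, scipy 1.17.1 and numba 0.67.0. Ties in score kept file order. Random placement was replaced by every base or tile of the window's length and by 20 fixed circular shifts, and peaks were never treated as replicates, so no p was computed over peaks or genes. Libraries were compared by two-sided exact permutation tests. Genes named were the best 15 by mean rank with a summit at the start, at most 4 of each gene list, the best 10 summits, the best 5 of each class, the 5 genes with most summits and the 5 words with the largest excess. Sequences were those of the best ranked summits of each kind, off UTRs, and some of these are not reported here. The shared summits and the gene lists were chosen with earlier results of these data known. The programs were tested on simulated data. P-values over libraries measure the spread between individual samples.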

Additional observations from a re-analysis of the deposited data

How the results depend on the processing

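The lists carry ranks and no read depth, so weak summits cannot be told from missing ones. Of 148 alternative values, 90 moved by less than the spread between replicate libraries (for counts, by less than 1.5 times) or kept their direction, 53 moved further and 5 turned the direction of a difference. The spread was the SD of the wild type libraries or, for shares found in premalignant and malignant libraries, of that stage. It was 42.0 points in premalignant cells, so their values, 34.2% to 53.8%, say little about stability. The cause was not tested except where the alternative itself sets it (shorter lists, fewer summits).

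The number of shared summits was 3815 with the best 5000 and 7251 with the best 10000 peaks, 79870 with all peaks and 3420 in single-copy sequence. One wild type library alone gave 20000 by construction.

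In the same order (best 5000, best 10000, all peaks, single-copy sequence), the intergenic share was 64.4%, 63.6%, 59.2% and 58.7%, the exon share 0.210%, 0.345%, 0.607% and 0.819%, and the number of genes with a summit at the start 119, 237, 5974 and 251. With all peaks the intron share was 29.6%, the promoter share 10.6%, the tandem repeat share 61.1% and the share found in malignant libraries 55.6%, and with the best 5000 the last was 46.4%. Single-copy sequence gave a promoter share of 8.10% and a median GC of 45.8%, and the best 5000 a median GC of 48.3%. The intergenic share was also 63.0% with summits within 100 bp, 62.3% with overlapping regions and 63.0% with 1 summit per region.

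A promoter from -1000 to +100 bp gave 63.1% intergenic, 32.9% intronic, 0.750% exonic and 3.27% promoter summits and 316 genes. A promoter of 2500 bp to each side gave 61.0%, 29.6%, 0.341%, 9.004% and 866 genes, and protein-coding genes alone 65.8% intergenic, 30.1% intronic and 3.65% promoter summits. Windows of 25 and 500 bp on each side had a median GC of 50.98% and 43.2%. Repeats of at least 24 and 60 bp stood at 91.6% and 26.7% of summits.

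Either wild type library alone gave intergenic shares of 62.2% to 62.4%, intron shares of 30.8% to 32.3%, exon shares of 0.37% to 0.43%, promoter shares of 4.99% to 6.50%, a median GC of 47.8% to 48.3%, tandem repeat shares of 69.3% to 74.0%, 746 to 988 genes, and 34.2% to 35.1% found in premalignant and 23.2% to 26.6% in malignant libraries.

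The wild type difference in promoter share was 4.74 points with all peaks (exact permutation p = 0.133) and 1.46 points with promoters of 2500 bp (exact permutation p = 0.6), opposite in sign to -0.079. It was -1.44 points with the best 5000, -0.915 with the best 10000 and -2.03 within the 3 libraries with narrow regions (exact permutation p = 0.667). Leaving out 1 library gave differences from -1.08 to 0.674 points, positive without wild type replicate 2, premalignant replicate 1 or malignant replicate 1. The replicate block, which compares libraries of the same number, gave -0.079 points (exact sign flips over the 2 numbers, p = 1, smallest possible 0.5). Deviations of replicates in 100-kb bins correlated between stages at 0.132 to 0.279, and replicate 1 had the larger promoter share at each stage. The labels do not say what a number shares, so whether numbers pair the libraries is not known.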
